A study of Mus musculus with 2 samples.

Results

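Far intergenic H3K27ac peaks, those on chromosomes 1 to 19 that lie outside all protein-coding genes and over 100 kb from the nearest one, were examined in mouse MA9 leukaemia cells with and without Gata2. They numbered 1639 of 36553 peaks on these chromosomes in the Gata2 KO library (4.48%) and 1560 of 33556 in the Gata2 f/f library (4.65%), or 3199 of the 71615 peaks of both deposited lists. The choice used position alone, not the height or the sharing of a peak. The cells were MLL-AF9 leukaemia cells, in the labels an AML cell line of bone marrow origin, taken from the marrow of primary mice. Gata2 KO cells (Gata2 -/-) and Gata2 f/f cells, which keep the floxed gene, were transduced with Cre or with MIT as the control vector, without the labels naming the vector of each library; both were sorted for GFP and tdTomato. Chromatin was taken after 7 to 9 days of culture in IMDM with serum, IL-3, IL-6 (10 ng/mL) and SCF (20 ng/mL), so that both libraries share the fusion, the sort and the cytokines. Each genotype is 1 library from a culture, the labels give neither age nor number of the animals, and no difference below has a replicate check or a test. The peak lists give no read depth.

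H3K27ac, acetylation of histone H3 at lysine 27, is written by the coactivators p300 and CBP and marks active promoters and enhancers. Enhancers can act on a promoter across long stretches of DNA with no gene, so-called gene deserts, which are often found beside genes of transcription factors and other regulators. Blood cells hold several such distal enhancers, among them those of Myc. GATA2 is a zinc finger transcription factor of blood stem and progenitor cells that binds the motif GATA. The gene table lists 20661 protein-coding genes on these chromosomes, and a gene was called marked when a peak lay within 1 kb of either of its ends.

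Although far from protein-coding genes, some of these peaks covered starts of other transcripts. The promoter windows of RefSeq (GRCm38.p6, 250 bases before to 50 after a start) matched 9291 of 12408 lncRNA genes. A lncRNA start was counted as under a peak, or marked, where a peak overlapped its window. Such a peak need not reach the start itself. The 6 windows below were chosen after their values were seen, to show starts under peaks of both lists, of the KO list alone and of the f/f list alone. Capitals mark GATAAG or its reverse complement CTTATC, and every window reads along its gene. Other sequences with GATA were not searched for and stay in small letters. Morrbid (chr2:128429302-128429601, minus strand), a lncRNA known in mouse myeloid cells to hold down the neighbouring proapoptotic gene Bcl2l11, starts under a peak of both lists.
Morrbid: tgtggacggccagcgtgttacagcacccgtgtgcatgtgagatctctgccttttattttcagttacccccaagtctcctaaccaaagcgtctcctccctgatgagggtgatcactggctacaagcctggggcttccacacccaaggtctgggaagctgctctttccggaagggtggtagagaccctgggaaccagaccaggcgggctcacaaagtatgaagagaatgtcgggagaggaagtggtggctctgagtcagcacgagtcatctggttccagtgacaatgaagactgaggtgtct
The start of Gm29998 (chr19:33391551-33391850, plus strand), a lncRNA, lies under the far peak with the highest -log10 p of both lists.
Gm29998: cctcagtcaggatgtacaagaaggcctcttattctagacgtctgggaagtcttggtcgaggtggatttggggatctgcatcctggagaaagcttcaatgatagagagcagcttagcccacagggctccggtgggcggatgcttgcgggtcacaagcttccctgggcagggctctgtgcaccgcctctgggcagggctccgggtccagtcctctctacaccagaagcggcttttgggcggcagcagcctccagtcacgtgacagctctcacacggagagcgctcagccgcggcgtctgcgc
Gm40746 (chr10:96180672-96180971, plus strand), in the gap between Eea1 and Btg1, starts at a peak of both lists, and its window holds GATAAG.
Gm40746: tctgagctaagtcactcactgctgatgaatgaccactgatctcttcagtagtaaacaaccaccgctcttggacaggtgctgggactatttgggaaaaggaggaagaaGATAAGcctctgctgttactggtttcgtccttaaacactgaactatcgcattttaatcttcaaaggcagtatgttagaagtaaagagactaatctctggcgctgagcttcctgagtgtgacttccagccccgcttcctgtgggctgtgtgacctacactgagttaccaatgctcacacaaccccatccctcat
Lncpint (chr6:31218425-31218724, minus strand), a lncRNA induced by p53, starts under an f/f peak, with a KO peak beside it.
Lncpint: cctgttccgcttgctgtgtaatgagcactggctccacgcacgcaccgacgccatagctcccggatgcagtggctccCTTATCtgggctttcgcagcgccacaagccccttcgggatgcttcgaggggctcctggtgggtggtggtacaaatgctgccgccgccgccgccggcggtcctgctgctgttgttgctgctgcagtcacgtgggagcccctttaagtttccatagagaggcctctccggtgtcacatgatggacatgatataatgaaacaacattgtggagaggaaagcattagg
5730522E02Rik (chr11:26210527-26210826, minus strand), between Bcl11a and Fancl, starts under a far peak of the f/f list alone.
5730522E02Rik: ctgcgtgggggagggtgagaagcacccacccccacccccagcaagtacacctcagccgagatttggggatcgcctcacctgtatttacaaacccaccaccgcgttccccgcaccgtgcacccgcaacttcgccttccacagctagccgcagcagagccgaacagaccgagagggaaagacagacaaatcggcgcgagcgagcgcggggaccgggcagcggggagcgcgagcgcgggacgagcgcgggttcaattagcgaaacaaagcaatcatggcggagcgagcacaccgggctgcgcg
Gm46069 (chr8:34689909-34690208, minus strand) starts under a far peak of the KO list alone.
Gm46069: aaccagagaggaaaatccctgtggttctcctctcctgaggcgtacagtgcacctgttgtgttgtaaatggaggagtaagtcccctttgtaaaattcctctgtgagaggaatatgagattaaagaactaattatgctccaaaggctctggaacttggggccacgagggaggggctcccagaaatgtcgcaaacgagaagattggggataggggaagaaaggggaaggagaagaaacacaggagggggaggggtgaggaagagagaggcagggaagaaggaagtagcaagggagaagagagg

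Of the lncRNA genes with all their starts over 100 kb from a protein-coding gene, 60 of 1669 had a peak on a start in KO (3.59%, 95% Wilson interval 2.80 to 4.60) and 66 in f/f (3.95%, 3.12 to 5.0). Other lncRNA genes had one in 19.9% of cases in both lists. Wilson intervals here and below cover counting error only. The 78 far lncRNA genes with a marked start comprised 48 marked in both lists, 12 in KO alone (15.4%, 9.03 to 24.99) and 18 in f/f alone (23.1%, 15.1 to 33.6). Of the 1689 other lncRNA genes with a marked start, 10.3% were marked in KO alone and 10.0% in f/f alone. The list that lacked the start had no peak within 1 kb of it either at 11 of these 12 genes and at 11 of these 18. The far peaks on lncRNA starts were wider than the other far peaks, with medians of 1380 bp against 1029 bp in KO and 1532.5 bp against 1110 bp in f/f. They overlapped the other list in 80% of 60 KO peaks and 82.8% of 64 f/f peaks, while the other far peaks did so in 67.9% of 1579 and 70.9% of 1496. The intervals were 68.2 to 88.2% and 71.8 to 90.1% on lncRNA starts, with 65.5 to 70.1% and 68.6 to 73.2% elsewhere. These start peaks were also stronger, since 60% of them in KO and 51.6% in f/f were at or above the list's median -log10 p, so the difference in sharing is not free of strength.

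The Morrbid start had a -log10 p of 57.0 in KO and 58.8 in f/f. At Gm29998 the values were 109.8 and 182.0, the highest of all far peaks of each list; -log10 p values are the authors' own and rank peaks within a list only. The start of 5730522E02Rik lay under an f/f peak of 1215 bp with a -log10 p of 20.2, and the nearest KO peak was 70631 bp away. The start of Gm46069 lay under a KO peak of 718 bp with a -log10 p of 19.3, and the nearest f/f peak was 116379 bp away. At Lncpint the lists differ only in extent: the f/f peak of 4583 bp covered the start, and a KO peak ended 315 bp from the window. GATAAG, searched on both strands, stood in 3 of the 85 promoter windows under far peaks (3.53%), those of Gm40746, Lncpint and Gm30530 in the Runx1 to Setd4 gap. It stood in 9.98% of the 2014 windows of lncRNA starts over 100 kb away and in 7.44% of all 31395 windows. These matches are letters in a 300-base window and say nothing of binding.

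Far peaks also lay beside the miR-29a and miR-29b-1 genes, a pair on chromosome 6 whose mature 3' arms share their seed (bases 2 to 8, in capitals) and are known repressors of collagen and DNA methyltransferase mRNAs.
mmu-miR-29a-3p: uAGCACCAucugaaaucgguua
mmu-miR-29b-3p: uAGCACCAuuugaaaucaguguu
The Mir29a hairpin lay 2287 bp from a far peak in KO and 2234 bp in f/f, and the Mir29b-1 hairpin 1941 bp and 1888 bp. Of 101 miRNA hairpins over 100 kb from a protein-coding gene, 7 had a far peak within 5 kb, and they were the same 7 in both lists. Among the 7, Mir7094-1, Mir7094-2 and Mir6388 lie in the Adam6a to Zfp386 gap of antigen receptor segments described below. The bodies of lncRNA genes lay under 26.4% of KO far peaks and 25.8% of f/f far peaks, and pseudogenes under 1.53% and 1.28%. No share of other hairpins or of all peaks was set beside these values, so they show neither an excess nor a lack.

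Of the far peaks, 1120 in KO (68.3%, 66.0 to 70.5) and 1114 in f/f (71.4%, 69.1 to 73.6) overlapped a peak of the other list by at least 1 bp. Among all peaks of chromosomes 1 to 19 these shares were 77.3% in KO and 83.9% in f/f. Far peaks were shared less often than all peaks in both libraries, by more than the counting intervals. The KO and f/f intervals for far peaks overlap each other, and their order depends on the peaks kept: at a -log10 q of 5 or more in both lists, 74.0% of KO far peaks and 63.3% of f/f far peaks were shared, beside 85.3% and 81.3% of all such peaks. With the 33556 strongest peaks of each list the values were 71.9% and 68.8%, beside 81.6% and 81.2%. Far peaks were the less shared class in both settings, whereas the order of the 2 libraries turned.

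Peak strength moved with sharing. Far peaks had a median -log10 p of 6.74 in KO and 8.09 in f/f, against 9.36 and 12.1 over all peaks of each list, and 33.2% of them in KO and 31.3% in f/f reached the median of their list. With all peaks of a list split into 10 bins by -log10 p, the share of far KO peaks found in f/f went from 30.8% in the weakest bin to 100% in the strongest 2 bins (49 peaks). All KO peaks went from 31.0% to 99.2%. In f/f the weakest far peaks were shared in 40.3% of 206 cases (33.8 to 47.1), below the 50.7% of all f/f peaks of that bin (49.0 to 52.3). Taken at the strengths of the far peaks, all peaks would be shared in 71.6% of cases in KO and 78.5% in f/f, against the 68.3% and 71.4% found. The gap between far and all peaks thus narrowed from 8.99 to 3.24 percentage points in KO and from 12.4 to 7.10 in f/f once strength was matched.

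**Figure D1:**
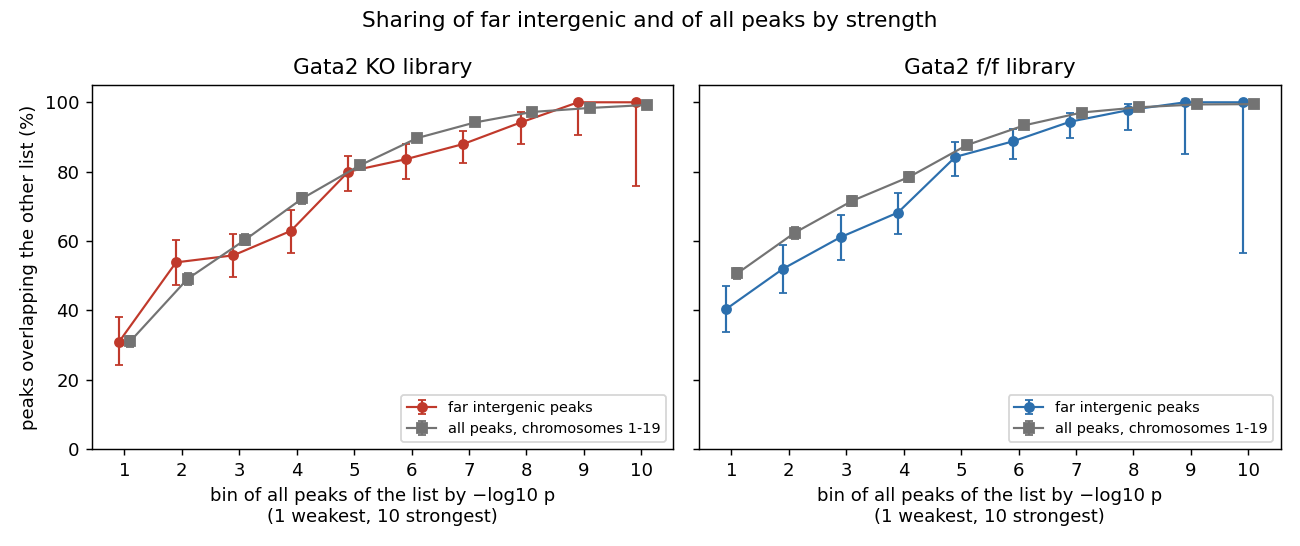
Share of peaks that overlap the other list (%), by bin of -log10 p, for far intergenic peaks (circles, coloured) and all peaks of chromosomes 1 to 19 (grey squares), in the KO library (left) and the f/f library (right); bars are 95% Wilson intervals. Far KO peaks lie at 30.8% in the weakest bin, beside 31.0% for all KO peaks, whereas far f/f peaks lie at 40.3%, below 50.7%.

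Far peaks with no peak of the other list within 1 kb numbered 518 in KO (31.6%, 29.4 to 33.9) and 445 in f/f (28.5%, 26.3 to 30.8). The same held for 22.5% of all KO peaks and 15.9% of all f/f peaks. Strong ones, at or above the list's median -log10 p, were few: 62 in KO (3.78%, 2.96 to 4.82) and 35 in f/f (2.24%, 1.62 to 3.10), beside 2.13% and 1.22% over all peaks. Most far peaks that stood alone were therefore below the median strength of their list.

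The 5 KO far peaks alone with the highest -log10 p stood near Bcl6, Jade1, Lyzl1, Sncaip and Glul. The first, at chr16:24102673-24103637, lay 113.8 kb from Bcl6, a transcriptional repressor, with a -log10 p of 27.7 and a fold enrichment of 5.86. It was 16.5 kb from the nearest f/f peak. The next, at chr3:41351010-41352325, opened the Pgrmc2 to Jade1 locus described below (-log10 p 26.3). The Lyzl1 peak (chr18:4054765-4056469, -log10 p 25.6) lay in the first 5333702 bp of chromosome 18, where the f/f list has no peak at all and the KO list has 37. The Sncaip peak (chr18:53020489-53021356, -log10 p 23.6) was 8.21 kb from an f/f peak. The Glul peak (chr1:154021660-154022268, -log10 p 22.1), beside the gene of glutamine synthetase, was 39.1 kb from one.

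The 5 strongest f/f far peaks alone stood near Ndufa4, Haao, Fbxw7, Cited2 and Fancl. The Ndufa4 peak (chr6:11593338-11594648) had a -log10 p of 38.8, the highest of the f/f far peaks alone, and no KO peak within 312.1 kb. The Haao peak (chr17:83984644-83987618, -log10 p 28.1) was 2975 bp wide and only 2.37 kb from a KO peak. The Fbxw7 peak (chr3:85117324-85118532, -log10 p 23.6) lay 138.1 kb from Fbxw7, the substrate receptor of a ubiquitin ligase that degrades MYC. The Cited2 peak (chr10:16552331-16553637, -log10 p 23.5) lay 1170 kb from Cited2, a regulator of CBP and p300, and 96.4 kb from the nearest KO peak. The Fancl peak (chr11:26209838-26211052, -log10 p 20.2) is the one over the start of 5730522E02Rik.

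The sharing of KO far peaks went up and down with distance, while that of f/f far peaks was lower beyond 200 kb than at 100 to 200 kb. At 100 to 200 kb, 68.5% of 989 KO peaks and 75.1% of 894 f/f peaks were shared, and at 200 to 500 kb 65.7% of 495 and 68.4% of 475. Between 500 kb and 1 Mb the order turned, with 79.3% of 111 KO peaks (70.8 to 85.8) and 61.5% of 143 f/f peaks (53.4 to 69.1). That bin holds more f/f peaks than KO peaks around the same 88 shared ones. Over 1 Mb away, 68.2% of 44 KO peaks and 62.5% of 48 f/f peaks were shared. The median distance to a gene was 174.9 kb for KO far peaks and 177.9 kb for f/f far peaks. Just inside the threshold, at 100 to 110 kb, 71.1% of 152 KO peaks and 72.3% of 148 f/f peaks were shared. Just outside it, at 90 to 100 kb, the values were 62.5% of 208 and 77.2% of 167.

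The shared far peak farthest from any gene, at chr5:59995784-59997222 over both lists, lay 1812 kb from the nearest one, in the gap between Pcdh7, which encodes a protocadherin, and G6pd2. Its width was 820 bp in KO and 1102 bp in f/f, with -log10 p values of 4.74 and 8.22. The second, at chr2:46661516-46662355, lay 1544 kb from a gene in the Zeb2 to Acvr2a gap and measured 462 bp in KO and 802 bp in f/f. The third, at chr3:43218423-43219122, lay 1415 kb from a gene in the D3Ertd751e to Pcdh10 gap and measured 700 bp in KO and 534 bp in f/f. All 3 were weak in both lists.

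**Figure D2:**
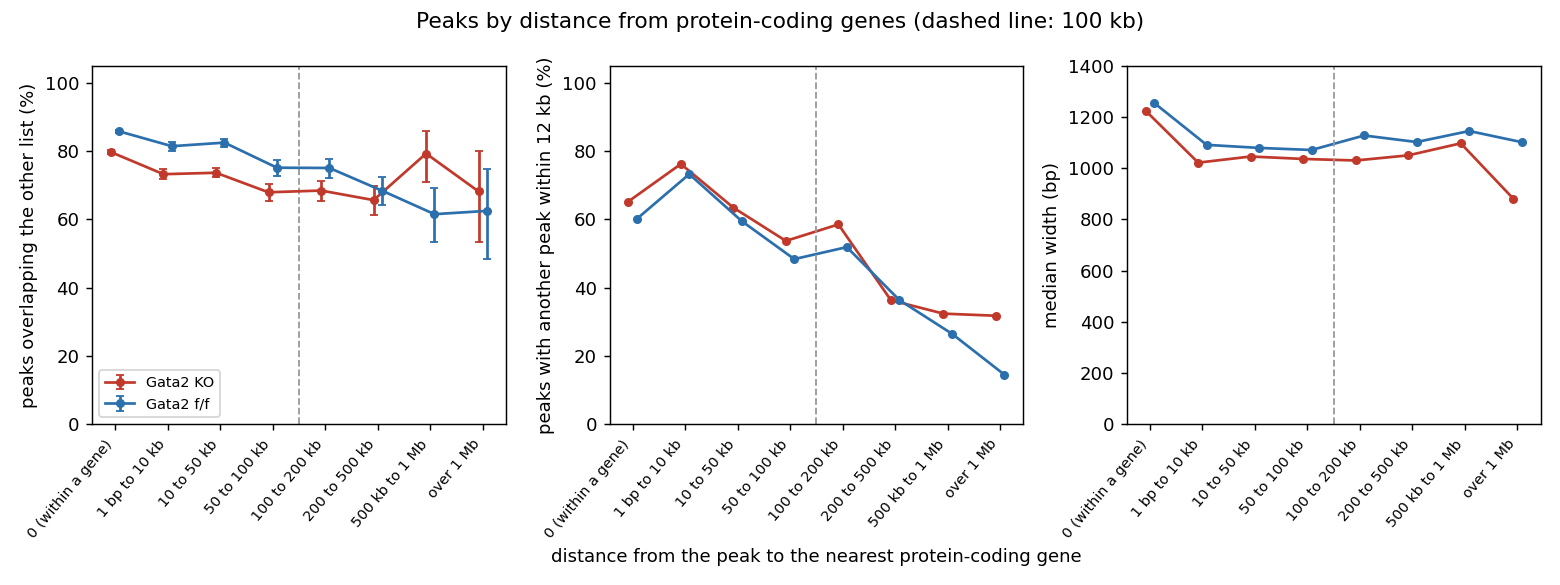
Peaks of the KO library (red) and the f/f library (blue) by distance from the nearest protein-coding gene: share overlapping the other list (%, bars are 95% Wilson intervals), share with another peak of the same list within 12 kb (%), and median width (bp); points right of the dashed line are far peaks. Sharing differs most between the libraries at 500 kb to 1 Mb, where it is 79.3% in KO and 61.5% in f/f, and clustering is lower at every far distance beyond 200 kb than at 100 to 200 kb.

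Far peaks were narrower than peaks at large. Their median width was 1039 bp in KO and 1125.5 bp in f/f, against 1165 bp and 1208 bp for all peaks. In peaks of matched strength far peaks were not narrower: the mean of the bin medians at the far peaks' strengths was 1020 bp for far KO peaks, beside 1012 bp for all KO peaks, and 1089 bp for far f/f peaks, beside 1048 bp for all f/f peaks. At least 3000 bp were reached by 30 KO (1.83%) and 28 f/f far peaks (1.79%), against 3.57% of all KO peaks and 3.79% of all f/f peaks. The far peaks covered 1903 kb of the genome in KO and 1943 kb in f/f, or 3.99% and 4.28% of all bases under peaks.

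Where 1 KO far peak overlapped exactly 1 f/f far peak (1100 pairs), the KO peak was slightly narrower, with a median KO to f/f width ratio of 0.959, beside 0.992 over the 27789 pairs of all peaks. It was at least 1.5 times wider in KO in 121 pairs (11%, 9.28 to 13.0), where 10.3% of all pairs were. It was at least 1.5 times narrower in KO in 175 pairs (15.9%, 13.9 to 18.2), where 9.99% of all pairs were. The pairs were not matched for strength, and far peaks were weaker than all peaks. Read numbers behind the lists are unknown. The part of strength and of read numbers in these width ratios was not tested.

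Far peaks stood apart from one another more often than other peaks. Another peak of the same list lay within 12 kb for 809 KO far peaks (49.4%, 46.9 to 51.8) and 682 f/f far peaks (43.7%, 41.3 to 46.2), against 65% of all KO peaks and 60.2% of all f/f peaks. Clustering dropped with distance, from 58.5% at 100 to 200 kb to 36.4% at 200 to 500 kb in KO, and from 51.9% to 36.4% in f/f. With a distance of 5 kb the far peaks' values were 18.2% in KO and 19.1% in f/f, and at a -log10 q of 5 or more they were 31.8% and 32.7%, so that the higher KO value is not found at short range or among stronger peaks.

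Joining far peaks of both lists within 12 kb gave 1446 loci. Both lists had a far peak in 834 of them (57.7%), the KO list alone in 309 and the f/f list alone in 303. Loci of 1 list alone were mostly single peaks: 553 loci held 1 peak in all, 271 of KO and 282 of f/f. All 71 loci with 6 or more peaks had peaks of both lists. In the 131 loci with 3 or more peaks in either list, the median ratio of covered bases, KO over f/f, was 1.02. KO covered at least 1.5 times as much in 27 of these (20.6%) and f/f in 30 (22.9%), so neither library was ahead.

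The 6 loci with the most covered bases over both lists held between 3 and 10 far peaks in either library. The Irf2bp2 to Tomm20 locus, at chr8:126755287-126828303, had 17.2 kb under 9 KO peaks and 16.6 kb under 8 f/f peaks. It lay 161.3 kb from Irf2bp2, which encodes a transcriptional corepressor, and 102.4 kb from Tomm20. The Bcl2l11 to Spdye4c locus, at chr2:128393195-128471159, had 17.9 kb under 10 KO peaks and 15.8 kb under 9 f/f peaks, and holds the Morrbid start. The Cd83 to Jarid2 locus, at chr13:44532849-44584775 and 146.0 kb from Jarid2, a cofactor of Polycomb repressive complex PRC2, had 11.2 kb under 8 KO peaks and 13.5 kb under 7 f/f peaks. The Eea1 to Btg1 locus, at chr10:96150307-96211762, had 9.23 kb and 9.12 kb under 7 peaks each. The Klf14 to Mkln1 locus, at chr6:31079597-31133499 and next to the miR-29 pair, had 8.26 kb and 8.54 kb under 6 peaks each. In these 5 loci the 2 libraries differ by at most 2.37 kb, and in the Bcl2l11, Eea1 and Klf14 loci which is ahead depends on the peaks kept: at a -log10 q of 5 or more the Bcl2l11 locus had 7.73 kb under KO peaks and 12.2 kb under f/f peaks.

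The other of the 6 loci is in the desert downstream of Myc, a growth-promoting transcription factor, at chr15:63601773-63625725, 1611 kb from Myc and 150.2 kb from Gsdmc. That desert is known from mouse work to hold a cluster of blood enhancers that act on Myc. Here KO peaks covered 6.27 kb and f/f peaks 12.3 kb, the largest difference towards f/f of all loci. A single f/f peak of 8106 bp, the widest far peak of the f/f list, lay over 3 KO peaks of 1055, 1444 and 797 bp. Its fold enrichment was 1.81, and those of the KO peaks were 1.82, 1.64 and 1.61. The 2 other KO peaks, of 2544 and 431 bp, lay under f/f peaks of 2920 and 1260 bp, so that the f/f calls covered more at all 3 f/f peaks. Every one of the 5 KO peaks and 3 f/f peaks of the locus overlapped the other list. The whole gap held 18 far peaks in KO and 17 in f/f.

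The other loci with the largest differences towards f/f lay in the Haao to Zfp36l2, Runx1 to Setd4, St3gal1 to Zfat and Il3ra to Slc4a7 gaps. The Haao to Zfp36l2 locus (chr17:83973299-84005118) had 2.90 kb under 4 KO peaks and 7.52 kb under 5 f/f peaks. It held the f/f peak of 2975 bp named above, with no KO peak over it, beside a strong peak of both lists (-log10 p 46.6 in KO and 75.01 in f/f). The Runx1 to Setd4 locus (chr16:93206827-93218001) had 2 peaks in each list, which came to 2.40 kb for KO and 6.72 kb for f/f. It lay 380.8 kb from Runx1, a core transcription factor of blood formation, and 365.5 kb from Setd4. Where peaks needed a fold enrichment of 3 or more, the KO minus f/f difference turned, at 2.40 kb. The St3gal1 to Zfat locus (chr15:67409945-67421302) had 2.13 kb and 6.32 kb, mostly through 1 weak f/f peak of 5138 bp. The Il3ra to Slc4a7 locus (chr14:14514023-14526319), 158.5 kb from the gene of the IL-3 receptor alpha chain, had 3 f/f peaks (3.87 kb, highest -log10 p 7.14) and no KO peak within 68023 bp.

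Towards KO the largest difference was in the Pgrmc2 to Jade1 locus (chr3:41351010-41413255), 142.5 kb from Jade1, a subunit of a histone acetyltransferase complex. It had 10.5 kb under 7 KO peaks and 4.51 kb under 3 f/f peaks. The 3 f/f peaks all overlapped KO peaks, among them the one at the start of the lncRNA 1700052H01Rik, and the 4 other KO peaks were 3707 to 11886 bp from any f/f peak. With a 3-fold minimum enrichment the KO minus f/f difference turned, at -2.64 kb. The Gm52008 to Bcl11b locus (chr12:107427919-107441943) had 3 KO peaks (3.93 kb, highest -log10 p 15.3). It lay 315.8 kb from Gm52008 and 468.5 kb from Bcl11b, a transcription factor of T cell development. The nearest f/f peak lay 278928 bp away. The Gm52008 to Bcl11b gap held 5 KO far peaks and no f/f far peak, and Bcl11b itself was marked in neither library.

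The remaining differences towards KO rested on weak peaks. The Nr5a2 to Ptprc locus, 120.7 kb from the gene of the leukocyte antigen CD45, had 4.40 kb in KO and none in f/f, at -log10 p values up to 5.32. The Ahr to Agr3 locus, 150.3 kb from the gene of the aryl hydrocarbon receptor, had 5.30 kb under 4 KO peaks and 1.34 kb under 1 f/f peak, at up to 6.73. The Ednra to Ttc29 locus had 4.56 kb and 0.836 kb, at up to 5.98. At a -log10 q of 5 or more none of these 3 loci kept a peak in either list.

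**Figure D3:**
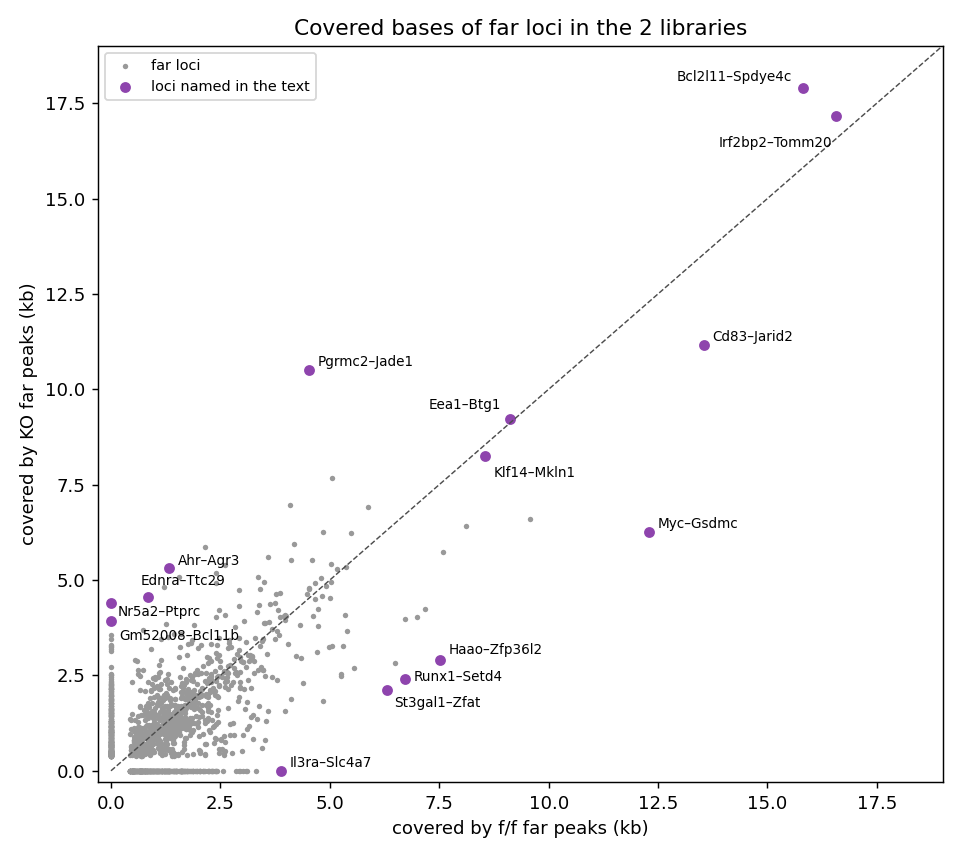
Bases covered by far peaks in each of 1446 loci (grey points, kb), KO on the vertical and f/f on the horizontal axis, with the loci named in the text in purple; the dashed line marks equal coverage. The loci with the most bases, such as Irf2bp2–Tomm20 (17.2 and 16.6 kb), lie close to the line, while Myc–Gsdmc (6.27 and 12.3 kb) and Pgrmc2–Jade1 (10.5 and 4.51 kb) lie off it.

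**Figure D4:**
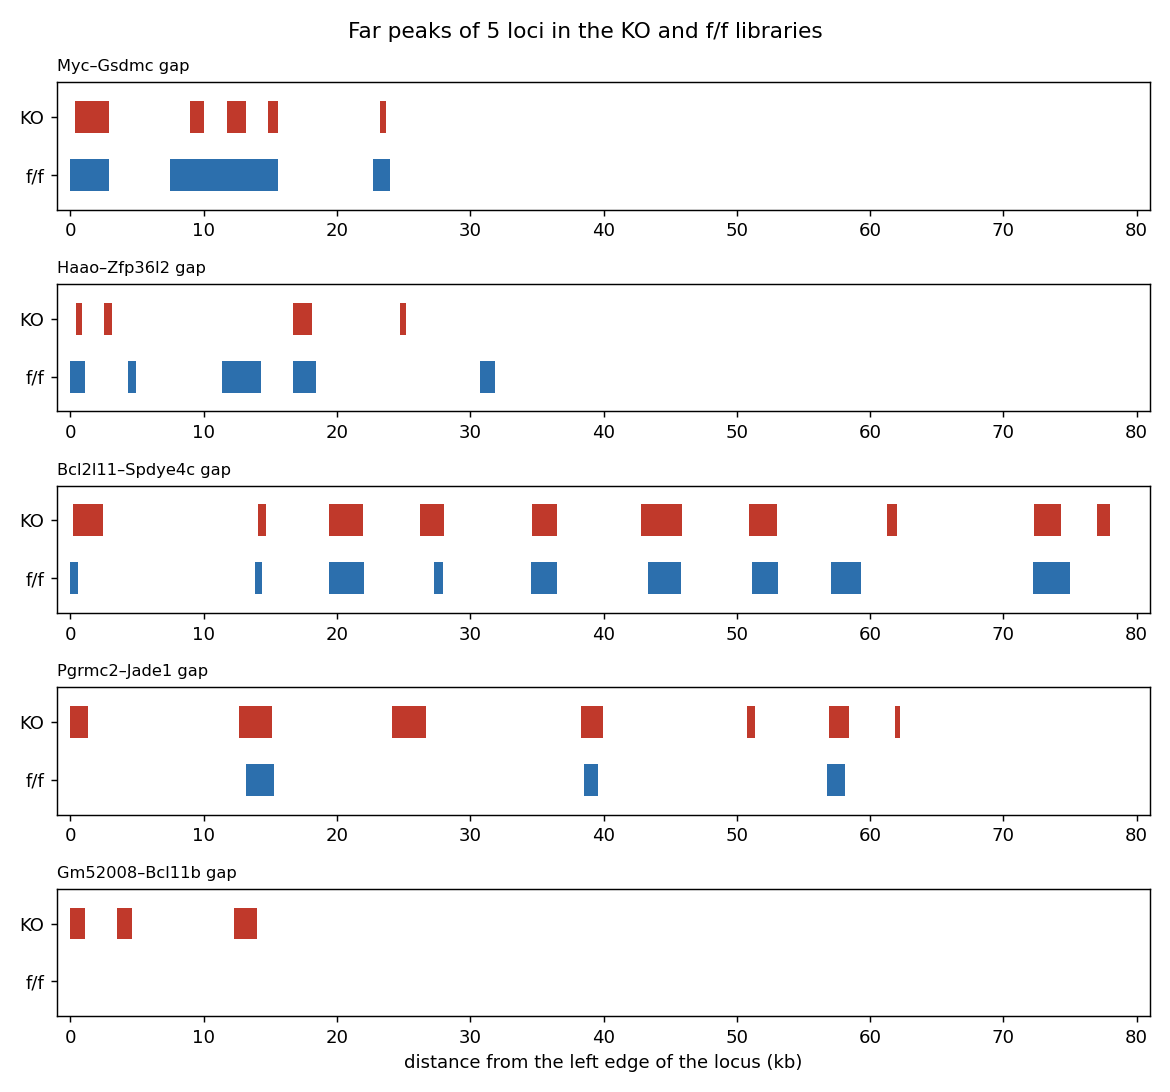
Far peaks (bars, to scale, in kb from the left edge of the locus) of 5 loci in the KO library (upper row, red) and the f/f library (lower row, blue). In the Myc–Gsdmc gap 1 f/f peak of 8106 bp spans 3 KO peaks; the Bcl2l11–Spdye4c locus has 10 KO and 9 f/f peaks at nearly the same places; the Gm52008–Bcl11b locus has 3 KO peaks and none of f/f.

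The far peaks lay in a minority of the gene deserts. Between neighbouring protein-coding genes there were 1393 gaps of over 200 kb, whose parts over 100 kb from a gene add up to 680.3 Mb. Of these gaps, 482 held a far peak in KO (34.6%), 480 in f/f (34.5%) and 408 in both, with 74 in KO alone and 72 in f/f alone. The density was 2.41 far peaks per Mb in KO and 2.29 in f/f. It was highest in the shortest gaps, at 8.39 and 7.99 per Mb where the far part is up to 100 kb, and lowest, at 1.11 and 1.18, where it is over 1000 kb. The 20 gaps with the most far peaks held 21.2% of them in KO and 22.4% in f/f. By chromosome, far peaks made up between 1.59% (chromosome 7) and 9.04% (chromosome 13) of KO peaks and between 1.22% (chromosome 7) and 9.35% (chromosome 13) of f/f peaks.

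The gap with the most, Adam6a to Zfp386 on chromosome 12 (2501 kb), held 42 KO and 51 f/f far peaks. It spans the variable segments of the immunoglobulin heavy chain, an antigen receptor gene of B cells. In KO 37 of the 42 were shared, and in f/f 37 of the 51. Over the whole genome 49 KO and 56 f/f far peaks lay on V, D, J or C segments, 37 and 44 of them on chromosome 12 and 11 and 12 in the T cell receptor alpha region of chromosome 14. The B cell markers Ms4a1 and Pax5 were marked in neither library, and of the T cell markers Cd3e and Cd8a were not marked while 1 of 3 was in both. Such segments are near copies of one another, and the labels do not say how reads with several matches were handled. Its part in these peaks was not tested.

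The other 5 of the 6 gaps with the most far peaks held between 16 and 25 in either library. Nmbr to Cited2 (2952 kb) held 25 in KO and 25 in f/f, of which 16 were shared in each. Zeb2 to Acvr2a (3697 kb) held 21 and 18, with 13 shared in each. Zeb2 encodes a zinc finger transcriptional repressor. Thap1 to Zfp703 (813.2 kb) held 16 and 22, with 13 shared in each. Runx1 to Setd4 (757.4 kb) held 17 and 20, and all 17 KO peaks were shared. Gadd45g to Diras2 (655.9 kb), beside a stress-response gene, held 20 and 16, with 12 shared in each. The Runx1 and Thap1 gaps had the highest densities of f/f far peaks of these 6, at 35.9 per Mb each. In KO they had 30.5 and 26.1 per Mb. The Gadd45g gap had the highest density of KO far peaks, at 43.9 per Mb beside 35.1 in f/f.

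**Figure D5:**
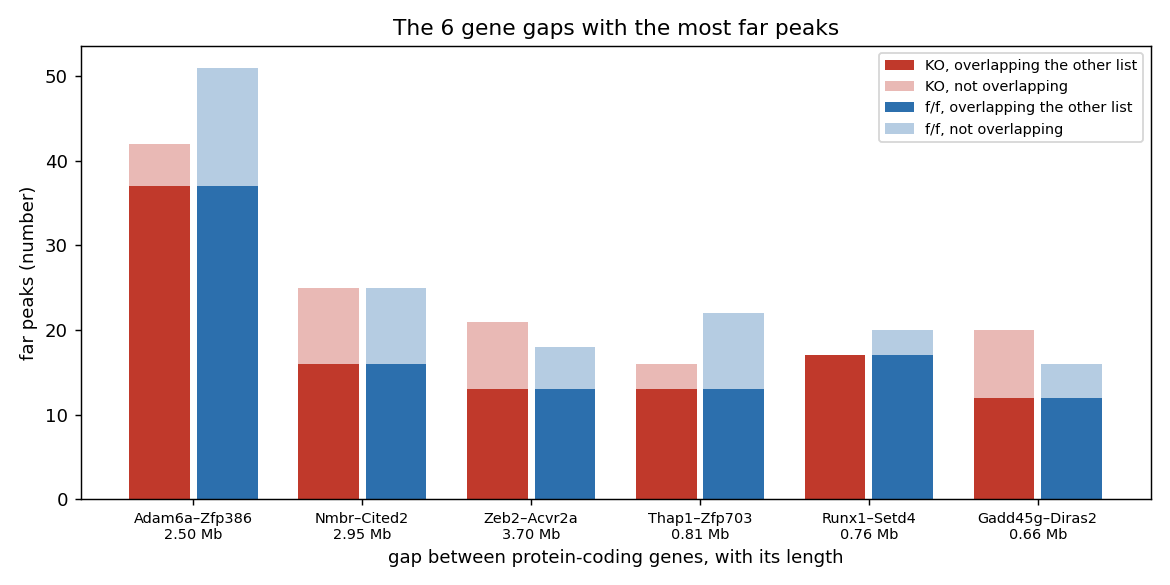
Number of far peaks in the 6 gene gaps with the most, KO (red, left bar) and f/f (blue, right bar); the dark part of a bar overlaps the other list and the pale part does not. The antigen receptor gap Adam6a–Zfp386 holds 42 KO and 51 f/f peaks, and in the Runx1–Setd4 gap all 17 KO peaks are shared.

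Many far peaks had a nearest gene that was itself marked at an end. This was so for 944 of the 1639 KO far peaks (57.6%, 55.2 to 60.0). In f/f it was so for 995 of the 1560 far peaks (63.8%, 61.4 to 66.1). Of all protein-coding genes 51.8% were marked in KO and 51.9% in f/f. The former are shares of peaks and the latter of genes. Several far peaks can have the same nearest gene, while the intervals treat peaks as independent. An excess over genes at large was thus not tested. At 3-fold enrichment or more the shares of far peaks were 43.4% in KO and 55.8% in f/f. Genes beside a gap of over 200 kb were marked less often, in 38.7% of 2374 cases in KO and 41.2% in f/f. Neither flanking gene was marked for 20.5% of KO far peaks and 15.8% of f/f far peaks. Peaks shared by both lists had a marked nearest gene in 59.5% of cases in KO and 65.5% in f/f, and peaks alone in 53.7% and 59.3%.

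The more far peaks a gap held, the more often its flanking genes were marked. In KO, 33.2% of 1458 gap-flanking genes with no far peak were marked, 41.3% of 341 with 1, 50% of 364 with 2 to 4 and 52.6% of 211 with 5 or more. In f/f the shares were 35.7% of 1476, 40.4% of 337, 52.2% of 366 and 63.6% of 195. The intervals for 5 or more far peaks, 45.9 to 59.2% in KO and 56.6 to 70.0% in f/f, overlap. A far peak and a gene end in the same gap share 1 library and 1 neighbourhood, so these shares describe where peaks lie and give no target of any peak.

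Of 1036 gap-flanking genes with a far peak in either list, 456 were marked in both libraries, 22 in KO alone (4.19% of the 525 marked in either, 2.78 to 6.26) and 47 in f/f alone (8.95%, 6.80 to 11.7). Of all protein-coding genes marked in either list 5.0% were marked in KO alone and 5.18% in f/f alone, and of all 1016 such gap-flanking genes 3.74% and 9.65%, so that the uneven count is not particular to gaps with a far peak. With a window of 5 kb in the other list, 17 of the 22 and 35 of the 47 still had no peak there. Those in f/f alone with the most far peaks, chosen after their values were seen, were Diras2 (20 far peaks in KO and 16 in f/f), Adgrl2 (12 and 16), Ly86 (14 and 13) and Adgrl4 (12 and 13). Ly86 had a KO peak within 5 kb and the others had none. Of genes marked in KO alone, Maf, a leucine zipper transcription factor, had the most far peaks over both lists together, with 6 in KO and 5 in f/f, and no f/f peak within 5 kb.

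Over all 2374 gap-flanking genes, 38.6% had a far peak in their gaps in KO and 37.8% in f/f. Of 33 such genes on a list of blood transcription factors, 22 had one in KO and 22 in f/f (66.7% each). In 21 genes both lists had one, and the median was 3 far peaks in each list, against 0 over all gap-flanking genes. Longer gaps held a far peak more often. In KO, 20.3% of gaps with a far part up to 100 kb held one, and 54.8% of those over 1000 kb. In f/f the shares were 19.6% and 56.9%. Gap length was not matched for this list or those below, and its part in their counts was not tested. Zeb2 had 21 in KO and 18 in f/f, Runx1 17 and 20, and Myc 18 and 18. Id2, which encodes an inhibitor of helix-loop-helix factors, had 19 and 13. All 4 genes were marked in both libraries. Bcl11b (5 and 0), as above, was the member with a far peak in KO alone, and Ikzf2 (0 and 1) the one in f/f alone.

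On a list of MLL fusion targets and related leukaemia genes, 9 of 12 gap-flanking members had far peaks in KO and 9 in f/f. That is 75% each, where 38.6% and 37.8% of all gap-flanking genes had one. Sox4, which encodes an HMG-box factor, had 11 in KO and 14 in f/f, and the adhesion receptor gene Adgrl4 12 and 13. Mef2c, a myocyte enhancer factor gene active in MLL leukaemia, had 8 and 14 and was marked in neither library. Hmga2, which encodes an architectural chromatin protein, had 2 and 7. Of the 12 members 7 were marked in KO and 11 in f/f, where 38.7% and 41.2% of all gap-flanking genes were. The 4 marked in f/f alone were Hmga2, Meis1, Mecom and Adgrl4. A KO peak lay within 5 kb of Hmga2 and Meis1 but not of Mecom and Adgrl4. Mecom had no far peak in either list. Of the 1016 gap-flanking genes marked in either list, 9.65% were unmarked in KO and 3.74% unmarked in f/f. A lean towards f/f was thus found over all gap-flanking genes too, but of the 11 list members marked in f/f, 4 were unmarked in KO. The list is small, and this larger share was not tested. Mef2c, Hmga2, Meis1 and Mecom were named after their values were seen. Of the 7 f/f far peaks beside Hmga2, 6 lie in a stretch where the f/f list alone has 10 peaks in a row, and neither KO far peak does. The part of that stretch in the Hmga2 counts was not tested.

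Among cytokines and receptors, 8 of 13 gap-flanking members had far peaks in KO (61.5%) and 7 in f/f (53.8%). Over all gap-flanking genes these shares were 38.6% and 37.8%, and the lists of this paragraph are small. Kit, the receptor of the SCF in the medium, had 10 and 9, and Cxcr4, a chemokine receptor gene, 6 and 7. Pdgfra, across a gap from Kit, had 9 and 4 and was not marked. Il3ra had 2 and 6. Of 20 gap-flanking members of a list of signalling feedback genes, 15 had far peaks in KO and 15 in f/f (75% each). Btg1, an antiproliferative gene, had 16 and 14, and the MAP kinase phosphatase genes Dusp10 and Dusp6 8 and 9, and 7 and 7. All 3 were marked in both libraries. Of 10 gap-flanking cell cycle and apoptosis genes 7 had far peaks in KO and 7 in f/f (70% each). Gadd45g had 20 and 16, Bcl2l11 18 and 17 and Cdk6 3 and 3.

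Genes better known from other tissues also flanked far peaks. Of 92 gap-flanking neural and adhesion genes, 51 had a far peak in KO (55.4%) and 50 in f/f (54.3%), with a median of 1 in each. Only 4 of the 92 were marked in KO (4.35%) and 7 in f/f (7.61%), where 38.7% and 41.2% of all gap-flanking genes were. Adgrl2, a latrophilin gene, had 12 in KO and 16 in f/f, Cntn3, which encodes a contactin, 6 and 9, and Flrt2 5 and 8. Of 62 developmental transcription factors 25 had far peaks in KO (40.3%) and 26 in f/f (41.9%), near the 38.6% and 37.8% of all gap-flanking genes. Marked were 11 of the 62 in KO (17.7%) and 10 in f/f (16.1%), also below the shares of all gap-flanking genes. Zeb2 and Sox4 are on that list too, and Zfp608 had 9 and 14 and Sall3 11 and 8. No ubiquitously expressed gene of the 28 found flanked a gap of over 200 kb.

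Over the whole series, gene ends of myeloid markers were marked for 7 of 10 genes in KO and 8 in f/f, with Mpo missing in KO alone and Cd33 and Fcgr3 in both. Stromal markers were marked for 0 of 3 in both, endothelial ones for 0 of 3 in KO and 1 in f/f, epithelial ones for 1 of 3 and 3, and erythroid ones for 1 of 3 in both. The lists also differ in stretches. At the starts of chromosomes 7, 18 and 19 the KO list alone has 98, 37 and 63 peaks, and at the start of chromosome 4 the f/f list alone has 27. Of the far peaks, 8 in KO lie in these 4 stretches, and 23 in KO and 12 in f/f in the 16 stretches where 1 list alone has 10 or more peaks in a row. Without the 16 stretches 69.3% of KO and 71.8% of f/f far peaks were shared.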

How the data were processed

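H3K27ac ChIP-seq peak lists of 1 Gata2 KO and 1 Gata2 f/f library of MA9 cells were used, with groups taken from the labelled genotype. BWA, SAMtools and MACS2 with the mm10 genome made the broad peak lists, per the submitters' processing notes, which give no versions. The deposited columns are a score, which was not used here, a fold enrichment over background (a ratio) and a -log10 p and -log10 q, all made by the authors for each library by itself; the lowest -log10 q is 1.01 in both lists. Fold and -log10 values ranked or filtered peaks within a list only. Read totals are in neither the labels nor the lists, so that depth is unknown and percentages carry 95% Wilson intervals for counting error alone.

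Genes came from the RefSeq table of GRCm38.p6, the build of mm10. Python 3.11.15, pandas 2.3.3, numpy 2.4.6 and scipy 1.17.1 were used, bedtools 2.31.1 gave the same counts of far and of shared peaks, and the interval steps were tested on simulated data. Distances run to gene ends. Peaks were shared with an overlap of 1 bp, alone with no peak of the other list within 1000 bp, strong at or above the list's median -log10 p, and clustered or joined into loci within 12000 bp. A gene was marked by a peak within 1000 bp of either end, since the table holds no transcripts.

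The text names the 6 loci with most covered bases, the 5 with the largest difference each way, the 5 strongest far peaks alone per list, the 3 farthest shared peaks, the 6 gaps with most far peaks and up to 4 members per gene list; other genes are said to be chosen after their values. The members, lists and rules were chosen with earlier results of these data known. Alternatives were other thresholds of -log10 q, fold, number of peaks, distance, overlap, joining and gene-end window. The planned motif search covered promoter windows alone.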

Additional observations from a re-analysis of the deposited data

Results flagged for a closer look

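Chromosome X lay outside the comparisons. By the same rule it held 52 far intergenic peaks in the KO list and 58 in the f/f list, of which 35 in KO (67.3%) and 34 in f/f (58.6%) overlapped the other list. Their median width was 1177 bp in KO and 911 bp in f/f. They stand out only as peaks in data not otherwise used, and there was no control library to set them against.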

How the results depend on the processing

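Of 126 recomputed values over 15 settings, 73 stayed within the 95% interval of the value reported (counts of gaps within 1.5 times) and 53 did not. All values without stretches of 20 or more peaks of 1 list, without stretches of 10 or more, and without peaks on antigen receptor segments were among the 73; the last 2 of these settings were chosen after seeing the data. At a -log10 q of 5 or more, the share of far peaks in the list was 3.57% in KO and 3.97% in f/f, the shared share of far peaks was 74.0% in KO and 63.3% in f/f, the share alone was 26.0% in KO and 36.7% in f/f, the median width was 1219 bp in KO and 1269 bp in f/f, the clustered share was 31.8% in KO and 32.7% in f/f and the share with a marked nearest gene was 54.97% in KO and 61.3% in f/f. At 3-fold enrichment or more, the median width was 1091 bp in KO and 1200 bp in f/f, the clustered share was 26.1% in KO and 26.4% in f/f, the share with a marked nearest gene was 43.4% in KO and 55.8% in f/f, the shared share of far peaks was 59.4% in f/f and the share alone was 40.6% in f/f. With 33556 peaks from each list, the shared share of far peaks was 71.9% in KO and 68.8% in f/f, the share alone was 28.1% in KO and 31.2% in f/f and the clustered share was 46.6% in KO. At over 50 kb from a gene, the share of far peaks in the list was 8.35% in KO and 8.45% in f/f, the number of gaps with a far peak was 929 in KO and 922 in f/f and the share with a marked nearest gene was 61.7% in KO and 66.6% in f/f. At over 200 kb from a gene, the share of far peaks in the list was 1.78% in KO and 1.98% in f/f, the clustered share was 35.4% in KO and 32.7% in f/f, the number of gaps with a far peak was 234 in KO and 226 in f/f, the share with a marked nearest gene was 53.4% in KO and 56.9% in f/f, the shared share of far peaks was 66.5% in f/f and the share alone was 33.5% in f/f. With an overlap of at least 50% of the peak, the shared share of far peaks was 64.0% in KO and 64.2% in f/f. With no peak of the other list within 5 kb, the share alone was 28.1% in KO and 25.4% in f/f. With 5 kb in place of 12 kb, the clustered share was 18.2% in KO and 19.1% in f/f. With 25 kb, the clustered share was 65.4% in KO and 60.1% in f/f. With a gene-end peak within 5 kb, the share with a marked nearest gene was 64.9% in KO and 69.2% in f/f. With distances to every gene of the gene table, coding or not, the share of far peaks in the list was 0.460% in KO and 0.507% in f/f. Of 45 recomputed KO minus f/f differences of the 15 named loci, 7 turned. At a -log10 q of 5 or more these were Bcl2l11 to Spdye4c at -4.49 kb and Eea1 to Btg1 at -0.751 kb. At 3-fold enrichment or more they were Bcl2l11 to Spdye4c at -5.41 kb, Eea1 to Btg1 at -3.23 kb, Klf14 to Mkln1 at 0.097 kb, Pgrmc2 to Jade1 at -2.64 kb and Runx1 to Setd4 at 2.40 kb. The cause of these shifts was not tested. No paired analysis was possible because each genotype has 1 library. Depth is unknown, so that a missing call is no absence of the mark; wide peaks of low enrichment can be called as 1 or several; the nearest gene is a position, not a target; and gene ends stand in for promoters.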
